A study of Mus musculus with 7 samples.

Results

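Calmodulin genes of mouse skin fall into 2 kinds, and footprints of 5 such genes are described here: the skin-type genes Calm4, Calm5 and Calml3, and the calmodulin genes Calm2 and Calm3. The 5 were taken by symbol from the 13047 symbols of the table, keeping the transcript with most coding footprints, and all 5 were listed in every library and passed the count filter. They were selected on values of these libraries, namely their coding, 5′ UTR and whole-transcript footprints, so their differences between genotypes are given as a description, without a test. The libraries are ribosome profiling of primary epidermal tissue, which is the skin's outermost layer, from mice with a transgenic knockout of Pelo (KO, 2 libraries) and from wild-type mice (WT, 2 libraries). Ribosome profiling sequences the pieces of mRNA covered by ribosomes, so a count over a coding region measures the ribosomes on it. RNA-seq of the same tissue (2 KO samples, 1 WT sample) is not analysed here, so more mRNA and more ribosomes per mRNA cannot be told apart. The labels do not give the promoter that drives the knockout, the cells it reaches, the age of the mice or whether replicates came from separate animals, so a p-value speaks of the spread among these libraries, which may be technical.

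Calmodulin is the small calcium sensor of all animal cells. It holds calcium in EF-hand loops and, once loaded, switches on kinases, the phosphatase calcineurin, calcium pumps and many other proteins. Calm2 and Calm3 are separate genes that encode the same calmodulin protein. Calm4 and Calm5 (also called Scarf and Scarf2) encode calmodulin-related proteins known from the differentiating layers of mouse epidermis, where a rise of calcium drives keratinocytes to mature, and Calml3 encodes an epithelial calmodulin-like protein that, in human cells, serves as a light chain of the motor myosin-X.

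Calml3, Calm4 and Calm5 lie next to each other among the protein-coding genes of chromosome 13, with Asb13 before Calml3 and Net1 after Calm5, while Calm2 is on chromosome 17 and Calm3 on chromosome 7 (RefSeq, GRCm38.p6; the deposited table uses mm9, and the order alone is taken from RefSeq). The DNA before Calm4 and Calm5 is nearly one sequence. RefSeq's promoter table held windows for 3 of the 5 genes, Calm4, Calm5 and Calm3. At an offset of 44 bases, 256 bases of the Calm4 and Calm5 windows could be laid side by side, and 1 base differed (99.6% identical). The 206 of them that precede the annotated start of Calm4 are shown first, at chr13:3837551-3837756 for Calm4 and chr13:3853923-3854128 for Calm5, both on the plus strand, with the 1 differing base in capitals. Counted from the first base shown, it is A130G, with the Calm4 base first. The 250 bases before Calm3 (chr7:16924033-16924282, minus strand) are shown for contrast, with each CG in capitals.
Calm4: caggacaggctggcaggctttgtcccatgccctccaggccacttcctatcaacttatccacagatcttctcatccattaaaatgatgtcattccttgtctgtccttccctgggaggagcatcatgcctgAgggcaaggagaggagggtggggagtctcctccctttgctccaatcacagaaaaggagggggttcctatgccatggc
Calm5: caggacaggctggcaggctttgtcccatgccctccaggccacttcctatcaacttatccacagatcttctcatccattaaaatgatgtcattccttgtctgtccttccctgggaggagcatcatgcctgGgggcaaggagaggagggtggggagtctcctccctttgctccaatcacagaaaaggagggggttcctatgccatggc
Calm3: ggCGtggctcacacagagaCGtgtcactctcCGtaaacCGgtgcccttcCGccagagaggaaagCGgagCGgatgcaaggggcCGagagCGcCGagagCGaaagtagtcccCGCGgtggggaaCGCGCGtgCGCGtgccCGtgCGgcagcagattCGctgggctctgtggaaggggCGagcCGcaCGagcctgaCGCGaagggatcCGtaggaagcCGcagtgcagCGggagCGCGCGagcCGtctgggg

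The 2 skin-type stretches hold 0 CG dinucleotides and 53.9% and 54.4% G or C, whereas the Calm3 stretch holds 33 CG and 69.2%; the median over 9745 promoters of listed genes was 15 CG and 59.2%, in 250 bases. The Calm3 window shared no run longer than 8 bases with either of the others. Both strands of the 250 upstream bases were searched for motifs that were chosen after the sequences had been seen. The letters CCAAT occurred once in Calm4 and once in Calm5 (36.1% of promoters held them), as did TGATGTCA (1.42% of promoters). The AP-1 letters TGANTCA (5.14% of promoters), TGACGTCA (2.63%), the TATA letters TATAAA (7.81%) and the GC box GGGCGG (57.4%) were not found in these letters in any of the 3 windows; no motif was counted inside another. The likeness runs on into transcribed sequence of Calm4. All 23 words of 28 nt in the first 50 transcribed bases of Calm4 also occur in the Calm5 window. At the offset of 44 bases, most of the matching Calm5 bases lie before the annotated start of Calm5. A footprint of 28 nt from these Calm4 bases matches both genomic copies, and the sources used here do not give how reads matching several places were treated.

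The libraries held between 4221675 and 5282276 coding footprints. Pelo, the gene knocked out, held 24 and 21 footprints in KO and 101 and 61 in WT (log2 change −1.65, SE 0.25, adjusted p = 0.000799, edgeR quasi-likelihood test). Epidermal markers were present in all 4 libraries, but they were not the leading signal in WT. Coding counts of the basal keratin Krt14 were 51320 and 43868 in KO but 15229 and 14401 in WT. Those of Krt15, also basal, were 4452 and 5473 in KO but 21138 and 16066 in WT. Col1a1, a collagen of dermal fibroblasts, held 68499 and 75428 in KO and 185880 and 233336 in WT. That was above both basal keratins in every library, so the libraries labelled epidermis also carried much dermal signal. In KO the spinous keratins Krt1 (116625 and 97127) and Krt10 (85300 and 76577) stood above Col1a1. In WT they stood below it (14812 and 13724 for Krt1, 51352 and 37081 for Krt10). The epidermal layers were not represented alike. A list of 8 granular and cornified markers summed to 2.99% and 2.76% of the coding total in KO and 0.787% and 0.753% in WT, with 7 of 7 tested markers higher. Of 6 spinous markers 4 were higher and 2 not called, with 6.06% and 5.45% against 3.01% and 2.50% of footprints, and of 7 basal markers 2 were higher and 2 lower, with 2.44% and 2.23% against 1.59% and 1.69%. Dermal fibroblast markers, 4 of 6 lower, took 3.83% and 4.37% in KO and 8.24% and 12.4% in WT. Skeletal muscle markers took 0.165% in WT replicate 1 and 0.0398% to 0.0436% in the other libraries, and Myh4 had 2562 footprints in that library against 291 in WT replicate 2 and 63 in KO replicate 1. Melanocyte markers, 4 of 5 tested higher and 1 lower, took 0.0328% and 0.0174% in KO and 0.00443% and 0.00488% in WT, and hair shaft markers, 2 of 2 tested higher, 0.131% and 0.0479% against 0.00409% and 0.00511%, both highest in KO replicate 1. Sebaceous (5 of 6), adipocyte (5 of 5), macrophage and Langerhans (4 of 6) and T cell markers (3 of 5) were otherwise lower in KO. Of 4 tested endothelial markers, 0 were higher and 0 lower. These counts stand against a background of many calls. At an adjusted p of 0.05 (edgeR), 39.2% of all 10873 tested genes were called, 20% higher and 19.2% lower in KO. The part the marker shifts play in the values below was not tested, and fewer cells of a type and less RNA per cell cannot be told apart.

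The 3 skin-type genes carried more coding footprints in both KO libraries than in either WT library, while Calm2 carried fewer and Calm3 about as many. Values are TMM-normalised CPM (coding counts scaled to a common library size) with their mean ± SD over 2 libraries, and densities are CPM per kilobase of the counted coding region, which allows genes to be compared.

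Calm4 (transcript uc007pjb.1, 387 nt counted as coding) had coding counts of 18924 and 14710 in KO and of 3659 and 2262 in WT. On the normalised scale that was 3816 ± 537 CPM in KO against 586 ± 86.4 in WT, a 6.51-fold higher level (log2 change 2.70, SE 0.17). Both KO libraries lay far above both WT libraries. Of the whole coding total, Calm4 alone took 0.386% and 0.327% in KO but 0.0696% and 0.0538% in WT. Ordered by density among 10873 tested genes, it was number 6 and 7 in the KO libraries and number 48 and 70 in the WT libraries.

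Calm5 (uc011yvy.1, 363 nt) was read at a far lower density than Calm4 in every library: the ratio of Calm4 to Calm5 was 8.06 and 7.92 in KO and 7.08 and 7.63 in WT. Its coding counts were 2202 and 1743 in KO and 485 and 278 in WT. The level was 448 ± 57.3 CPM in KO and 75.1 ± 15 in WT, 5.94-fold higher in KO (log2 change 2.57, SE 0.16), and the genotypes did not overlap. Calm4 and Calm5 therefore kept nearly one ratio while both differed about 6-fold between genotypes. Only the sequence around their starts was compared, so how far their coding regions share reads is not known here, and their separate values are uncertain to that extent.

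Calml3 (uc007pja.2, 390 nt), the third gene of the row on chromosome 13, differed less. Its coding counts were 1837 and 1824 in KO, and 923 and 798 in WT. That is 417 ± 13.3 CPM in KO and 174 ± 15.5 in WT (2.39-fold, log2 change 1.26, SE 0.12). Again both KO libraries were above both WT libraries. The ratio of Calm4 to Calml3 density was 10.4 and 8.13 in KO and 3.99 and 2.86 in WT, so the 2 genes did not keep one ratio.

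Calm2 (uc008dux.2, 390 nt) went the other way, with coding counts of 990 and 914 in KO but 2133 and 1372 in WT. Its level was 216 ± 4.23 CPM in KO and 348 ± 41.6 in WT, 1.61-fold lower in KO (log2 change −0.68, SE 0.12), with both KO libraries below both WT libraries. Calm3 (uc009fin.1, 390 nt) held 162 and 170 against 245 and 168 footprints, or 37.8 ± 2.68 and 41.1 ± 3.07 CPM, and its genotypes overlapped (log2 change −0.13, SE 0.14). Of the 5 genes, 3 had both KO libraries above WT, as did 35.4% of all tested genes, and 1 had both below, as did 36.5%; 72.0% of genes did not overlap in one direction or the other. Since the genes were taken for these values, nothing is read from that count.

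**Figure D1:**
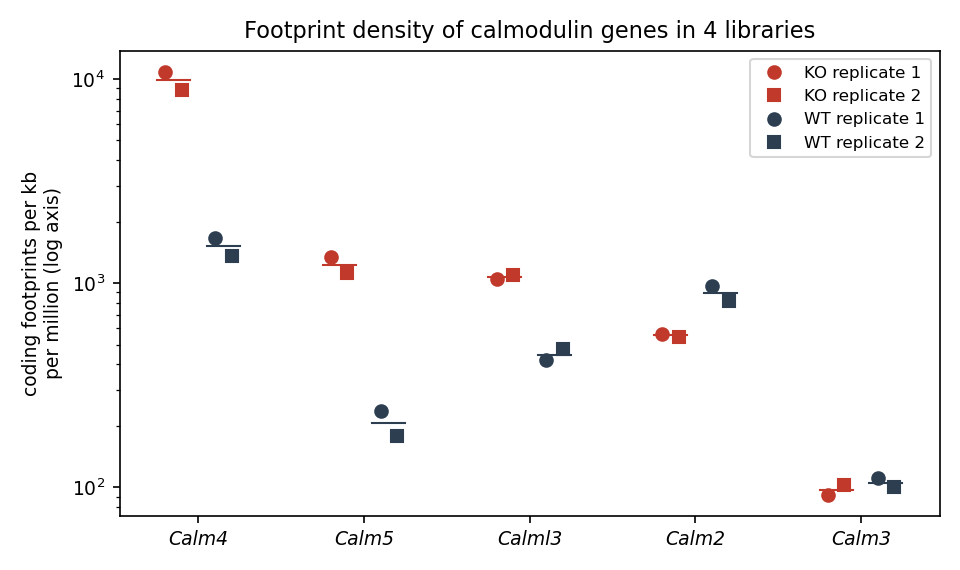
Coding footprint density (CPM per kilobase, log axis) of the 5 genes in each library, with KO in red and WT in dark blue, circles for replicate 1, squares for replicate 2, and a short line at the mean of 2 libraries. Calm4 lies between 8878 and 10840 in KO and between 1356 and 1671 in WT, Calm2 is higher in WT, and the Calm3 values overlap.

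The order of the genes by density differed between genotypes. In KO it ran from Calm4 (9859 ± 1387) through Calm5 (1233 ± 158) and Calml3 (1068 ± 34.1) to Calm2 (555 ± 10.8) and Calm3 (97 ± 6.88), and the Calm5 and Calml3 ranges of mean ± SD overlapped. In WT the order was Calm4 (1513 ± 223), Calm2 (891 ± 107), Calml3 (446 ± 39.8), Calm5 (207 ± 41.4) and Calm3 (105 ± 7.87), with no overlap between neighbours. Calm4 density was 1.73 and 1.66 times that of Calm2 in WT and 19.3 and 16.2 times in KO. Of the summed density of the 5 genes, Calm2 made up 28.4% and 27.9% in WT and 4.05% and 4.66% in KO, and Calm4 49.1% and 46.4% in WT and 78.1% and 75.6% in KO.

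Summed over Calm2 and Calm3, the density was 655 and 649 CPM per kilobase in KO and 1078 and 916 in WT, with both KO libraries below both WT libraries. Calm2 made up most of that sum in every library. The sum over the skin-type genes was 13229 and 11092 in KO and 2326 and 2008 in WT, so the skin-type genes lay above Calm2 and Calm3 together in each library, and the gap was wider in KO.

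**Figure D2:**
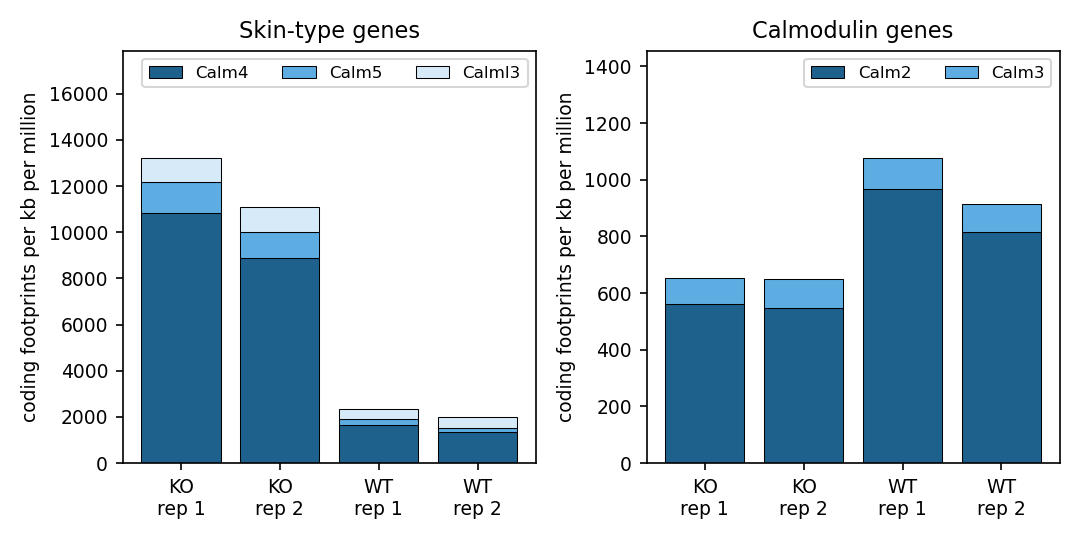
Stacked coding footprint densities (CPM per kilobase, axes from 0 and of different scale) in each library for Calm4, Calm5 and Calml3 on the left and for Calm2 and Calm3 on the right. The left sums are 13229 and 11092 in KO and 2326 and 2008 in WT, while the right sums are 655 and 649 in KO and 1078 and 916 in WT.

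Footprints on the 5′ UTRs of Calm4 and Calm5 were more frequent in KO than their coding footprints alone would give. The 133 nt of the Calm4 5′ UTR held 1165 and 614 footprints in KO and 50 and 43 in WT. Per nucleotide and relative to the coding region, that was a ratio of 0.179 and 0.121 in KO and 0.0398 and 0.0553 in WT. Both KO libraries were above both WT libraries, though they differed from each other.

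In the Calm5 5′ UTR of 89 nt there were 881 and 416 footprints in KO and 37 and 38 in WT. The ratio to coding density was 1.63 and 0.973 in KO and 0.311 and 0.558 in WT, so in KO replicate 1 the Calm5 5′ UTR was covered more densely than its coding region. As CPM, the Calm5 counts were 195 and 97.2 in KO and 6.54 and 8.81 in WT, beside 258 and 143 in KO and 8.84 and 9.97 in WT for Calm4. The coding counts of Calm4 exceeded those of Calm5 by far, as given above, and the 5′ UTR counts were much nearer to each other. The shared stretch described above lies at the start of the Calm4 transcript, but mostly before the annotated start of Calm5. Its part in these counts was not tested.

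Calml3 showed a smaller difference, with 66 and 63 footprints in KO and 18 and 6 in WT over 109 nt, or ratios of 0.129 and 0.124 against 0.0698 and 0.0269. Calm3 had 11 and 9 against 6 and 8 over 183 nt, and Calm2 only 2 and 3 against 4 and 1 over 134 nt, although its coding region was well covered; these counts are too low to compare. Genes in general had more 5′ UTR footprints in KO. Over 4046 genes with at least 10 of them, the median ratio to coding density was 0.244 and 0.3 in KO and 0.176 and 0.165 in WT, and the median log2 change of the ratio was 0.66, with quartiles of 0.13 and 1.18. The log2 change was 1.74 for Calm4, above that of 91.2% of those genes, 1.73 for Calm5 (91.1%) and 1.31 for Calml3 (79.7%).

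**Figure D3:**
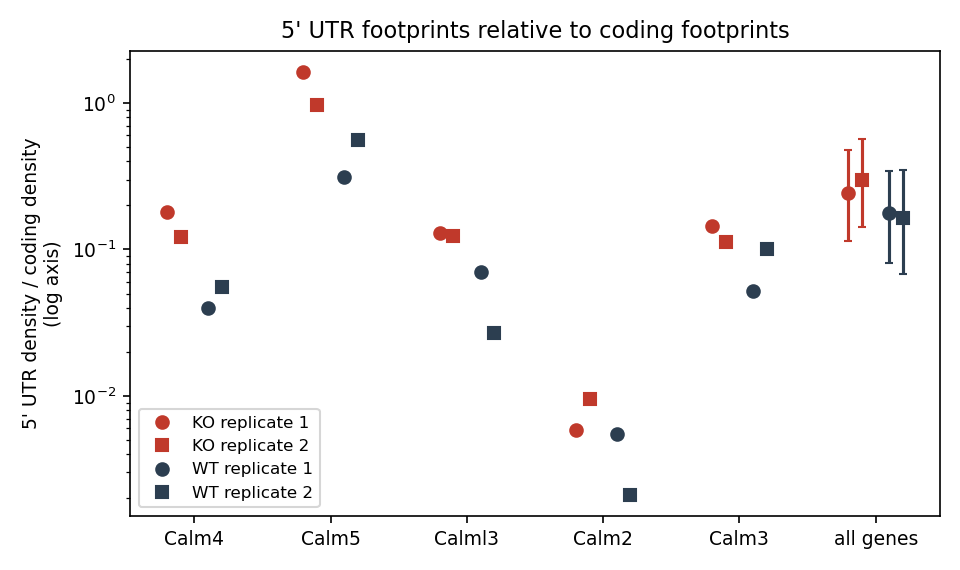
Ratio of 5′ UTR to coding footprint density (log axis) for the 5 genes in each library (KO red, WT dark blue, circles replicate 1, squares replicate 2) and, at the right, the median over 4046 genes with bars from the lower to the upper quartile. Calm5 reaches 1.63 and 0.973 in KO, Calm2 stays below 0.01 in every library, and the medians of all genes are 0.244 and 0.3 in KO and 0.176 and 0.165 in WT.

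Each transcript has 71 nt that belong to none of the 3 counted regions, and their position is not described in the file headers. On Calm5, whose transcript has 549 nt, these held 753 and 964 footprints in KO and 76 and 28 in WT, or 19.6% and 30.9% of its footprints in KO and 12.7% and 8.14% in WT. The Calm5 coding region accordingly held 57.4% and 55.8% of its footprints in KO and 81.1% and 80.8% in WT. For Calm4 the 71 nt held 9.89% and 11.6% in KO and 7.71% and 7.75% in WT. For Calml3 they held 12.1% and 12.1% in KO and 6.13% and 5.71% in WT. Over all tested genes together the share was 4.02% and 4.04% in KO and 2.39% and 2.26% in WT, so it was higher in KO generally. For Calm2 the genotypes overlapped, at 6.99% and 5.26% against 6.75% and 6.34%. Calm3 had only 6 and 6 such footprints in KO and 8 and 6 in WT, too few to compare. These shares also depend on the length of the coding region. Per nucleotide and relative to coding density, the median over all tested genes was 0.657 and 0.68 in KO and 0.462 and 0.461 in WT. Calm4 stood near that median, at 0.637 and 0.748 in KO and 0.463 and 0.467 in WT. Calm5 had 1.75 and 2.83 in KO and 0.801 and 0.515 in WT. Calml3 had 0.786 and 0.786 against 0.369 and 0.337, and Calm2 0.416 and 0.306 against 0.399 and 0.372.

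Footprints on 3′ UTRs, where ribosomes that fail to be released can collect, were few on these genes. They were few over all transcripts too, at 28082 and 27623 in KO and 37088 and 28245 in WT. Ratios to coding density over all genes are not set beside those given here. Calm4 had 55 and 53 in KO and 15 and 4 in WT over 324 nt, a ratio to coding density of 0.00347 and 0.0043 in KO and 0.0049 and 0.00211 in WT, which overlapped. Calm5 had 0 in each of the 4 libraries over only 26 nt, which allows up to 3 footprints in each. Calml3 had 7 and 14 against 8 and 5 over 856 nt, Calm2 6 and 2 against 4 and 1 over 621 nt, and Calm3 2 and 0 against 4 and 0 over 1564 nt.

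Set beside keratinocyte genes, the changes of Calm4 and Calm5 were of the size of the larger ones. The spinous keratin Krt1, named here with other markers after its values were seen, rose by 3.06 on the log2 scale (24270 ± 2240 against 2901 ± 399 CPM, adjusted p = 8.12e-06) and its partner Krt10 by 1.06 (adjusted p = 0.000926, edgeR for both). Flg, the precursor of filaggrin, rose by 3.86 (adjusted p = 2.85e-06), and Lor, the cornified envelope protein loricrin, by 0.85 (adjusted p = 0.00189). Likeness was measured as the distance between log2 CPM profiles over the 4 libraries, each centred on its mean. Calm4 and Calm5 were closest to each other, at 0.15, and each lay farther from Calml3, at 1.5 for Calm4 and 1.40 for Calm5. Among other genes with a mean of at least 10 CPM, the 3 nearest to Calm4 were Klk7, a serine protease that digests the junctions of cornified cells (0.17), Endou, an endoribonuclease (0.21), and Prss27, a serine protease (0.22). Those nearest to Calm5 were Klk7 (0.18), the kallikrein Klk8 (0.18) and Trex2, an exonuclease (0.21).

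Calml3 was nearest to Melk, a mitotic kinase, the nucleoporin gene Aaas (both 0.03) and the cyclin gene Ccna2 (0.06). Calm2 was nearest to Mylip, a ubiquitin ligase, Camsap3, which binds microtubule minus ends (both 0.04), and Vsig10 (0.05), and Calm3 to Zfp687, Rora and Chid1 (each 0.03). With 4 libraries many genes have nearly the same profile, and the nearest 3 depend on single libraries: when 1 was left out, from 0 to 2 of the 3 were shared for Calm4 and Calml3, 0 to 1 for Calm5 and Calm2, and 0 for Calm3. With Pearson correlation in place of the distance, 0 of the 3 were shared for each of the 5 genes.

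The genes that flank the row on chromosome 13 moved the other way. Asb13, a substrate adaptor of a ubiquitin ligase, held 23 and 19 footprints in KO and 108 and 65 in WT (log2 change −1.84, adjusted p = 0.000452), and Net1, an exchange factor for the GTPase RhoA, held 464 and 550 against 957 and 729 (−0.55, adjusted p = 0.0101, edgeR for both). Both fell; without KO replicate 1, Net1 stood at −0.39 and lost its call. The difference between these genes and the skin-type genes was not tested.

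Proteins that calmodulin regulates or binds, genes of calcium entry, stores and sensing, and EF-hand relatives were next described by lists. They were set beside a background in which 39.2% of 10873 tested genes passed an adjusted p of 0.05 (edgeR quasi-likelihood test, Benjamini-Hochberg adjustment). Of all tested genes 20% were higher and 19.2% lower in KO, and the median log2 change was −0.02. With library totals as the scale, the split was 1495 higher and 2997 lower in place of 2173 and 2084, with a median shift of −0.17 in log2 change. Genes among the 3 largest rises and falls of a list are named by rule, and further members were named after their values were seen.

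Calmodulin-dependent kinases were lower or not called in KO. Of 13 tested members 8 fell and 0 rose (0 also at an unadjusted p of 0.05 and with DESeq2), 61.5% called, and the list median was −0.77. Mylk, the myosin light chain kinase, held 243 and 359 footprints in KO and 1550 and 1306 in WT (log2 change −2.07, SE 0.19, adjusted p = 4.36e-05). Camkk1, which activates other calmodulin kinases, fell by 1.92 (24 and 21 against 117 and 78 footprints, adjusted p = 0.000195), and Dapk1, a death-associated kinase, fell by 1.65 (138 and 102 against 452 and 397, adjusted p = 5.04e-05). The others that fell were Eef2k, which phosphorylates elongation factor 2 (−0.94), Camk1 (−0.91), Phka2 (−0.79) and Phkb (−0.59) of phosphorylase kinase, and Camkk2 (−0.77). Camk2g (−0.44), Camk2d (−0.35), Camk1d (−0.14), Phkg2 (−0.03) and Dapk2 (0.22) did not pass. Phka1 was listed in WT only, with 75 and 56 footprints, where an unlisted value can reach 36. Without KO replicate 1, 5 of the kinases passed. The fibroblast markers were lower too (3.83% and 4.37% in KO, 8.24% and 12.4% in WT), and their part in these falls was not tested.

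Calcineurin, the calmodulin-activated phosphatase, was listed with its regulators and the NFAT factors. The list held 2 falls and 0 rises among 11 tested genes, 18.2% called. It held 1 rise at an unadjusted p of 0.05 (edgeR) and 0 rises with DESeq2. The median was −0.27. Nfatc1, an NFAT factor of hair follicle stem cells, fell by 1.16 (142 and 181 against 462 and 360 footprints, adjusted p = 0.000395). Ppp3ca, a catalytic subunit, fell by 0.41 (adjusted p = 0.0391), a call lost without KO replicate 1 (−0.29), without WT replicate 2 (−0.31), with DESeq2 (−0.40) and with unlisted counts at 0 (−0.41). The regulatory subunit Ppp3r1 (0.25, adjusted p = 0.138) and the catalytic subunit Ppp3cb (−0.27, adjusted p = 0.184) did not pass. Leaving out KO replicate 1 gave 1 fall and 1 rise, and leaving out WT replicate 2 gave 1 fall. With library totals 5 fell.

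Other calmodulin-binding proteins went both ways: 7 rose, 7 fell and 16 were not called among 30, 46.7% called, with a median of 0.07 (−0.11 with library totals, where 5 rose and 11 fell). Marcksl1, which binds actin and membranes, rose by 1.21 (156 and 151 against 91 and 60 footprints, adjusted p = 0.000398), and Iqgap3, a scaffold of dividing cells, by 1.06 (adjusted p = 0.00143). Myo10, the myosin to which Calml3 binds in human cells, rose by 0.53 (adjusted p = 0.0108). The largest falls were in Add3, an adducin of the spectrin skeleton (−1.17, adjusted p = 7.56e-05), Iqgap2 (−1.03, adjusted p = 0.00184) and the plasma membrane calcium pump Atp2b4 (923 and 667 against 1994 and 1446 footprints, −0.93, adjusted p = 0.000913). Atp2b1, another such pump, fell by 0.45 (adjusted p = 0.0122). All these adjusted p-values are from edgeR.

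**Figure D4:**
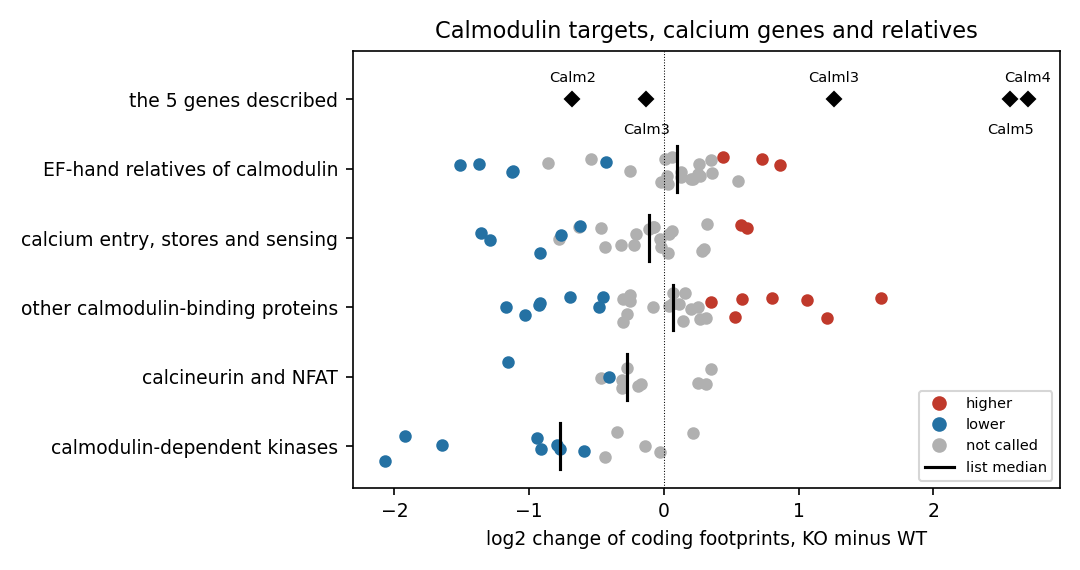
Log2 change of coding footprints (KO minus WT) for the tested members of 5 gene lists, coloured by the edgeR call at an adjusted p of 0.05, with a vertical bar at each list median and the 5 calmodulin genes as black diamonds in the top row. The calmodulin-dependent kinases show 8 falls and 0 rises with a median of −0.77, and Calm4 and Calm5, at 2.70 and 2.57, lie to the right of every list member.

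Genes of calcium entry, stores and sensing changed in 7 of 25, 28% called, with 2 rises, 5 falls and a median of −0.11. Itpr1, a receptor that releases stored calcium, fell by 1.29 (116 and 113 against 354 and 280 footprints, adjusted p = 7.98e-05), and Itpr3, of the same family, fell by 0.76 (adjusted p = 0.000964). Mcu, the mitochondrial calcium channel, fell by 0.92 (adjusted p = 0.0221), a call lost without KO replicate 2 (−0.62), without WT replicate 1 (−0.57) and with unlisted counts at 0 (−0.92). Trpm7, a channel with a kinase domain, fell by 0.62 (adjusted p = 0.00886). Atp2c2, a Golgi calcium pump, rose by 0.62 (adjusted p = 0.00824) and Stim2, a sensor of store calcium, by 0.57 (adjusted p = 0.0224); Stim2 lost its call without WT replicate 1 (0.38), with library totals (0.39) and with DESeq2 (0.57), and Atp2c2 with DESeq2 (0.63). Atp2a2 (0.06, adjusted p = 0.69) and Atp2c1 (−0.32, adjusted p = 0.0702), the pumps mutated in human Darier and Hailey-Hailey disease of the epidermis, did not pass, nor did the store channel Orai1 (−0.08, adjusted p = 0.746, edgeR throughout). Without WT replicate 1, 1 gene rose and 3 fell, and with library totals 1 rose and 9 fell.

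Among 26 tested EF-hand relatives, 3 rose and 5 fell, 30.8% called, with a median of 0.10 (−0.08 with library totals). Cib1, which binds calcium and integrins, rose by 0.86 (adjusted p = 0.00397), and Chp1, a calcineurin B homologue, by 0.73 (adjusted p = 0.00179). Myl9, a regulatory light chain of smooth muscle and fibroblast myosin, fell by 1.51 (adjusted p = 0.000109), Rcn3, an EF-hand protein of the secretory pathway, fell by 1.37 (adjusted p = 0.000127), and Capns2, a calpain small subunit, fell by 1.13 (adjusted p = 0.000926). The last 2 of the 5 falls were in Hpcal1 (−1.12, adjusted p = 0.0045) and Sri, which encodes sorcin (−0.43, adjusted p = 0.0322). The light chains Myl6 (0.27), Myl12a (0.13) and Myl12b (0.01) did not pass (adjusted p = 0.0831, 0.374 and 0.945, edgeR). Without KO replicate 1, 5 rose.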

How the data were processed

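Raw footprint counts of 13167 transcripts were deposited by the authors, for each transcript and its coding and untranslated regions, on mm9, per the file headers. Those describe one table of footprints of 28 to 34 nt and another of 20 to 22 nt, but the 2 tables are identical, so the length class is unknown. The submitters' processing notes name TopHat2 2.0.10, Bowtie2 2.2.6 and CASAVA 1.8, without a role. The handling of multiply matching reads, which the sources used here do not give, can change counts of gene families. Another 24 columns of densities, ratios and sums were not used. No listed coding density is at or below 0.01 per nt, so a missing value can be a low count or none.

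Titles gave each library's genotype. Of 13047 symbols, 10931 were listed in all 4 libraries and 10873 had at least 10 counts in at least 2. TMM factors were 0.927 and 0.957 for the KO libraries and 1.09 and 1.03 for the WT libraries. Coding counts went into edgeR 4.0.16 (quasi-likelihood, R 4.3.3), with Benjamini-Hochberg adjustment over all genes and a threshold of 0.05. SEs were derived from the fold change and its F statistic. The biological coefficient of variation was 11.1%. The 5′ UTR ratios were computed from counts and lengths, and their log2 changes from counts summed per genotype with a pseudocount of 0.5. The fit was tested on simulated data. Replicates differed by more than sampling noise (chi-square per gene of 5.49 in KO and 10 in WT). Totals per library set the precision; 5′ and 3′ UTR counts are the thinnest.

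The members and the lists were chosen with earlier results of these data known. Named by rule were the 5 genes, Pelo, up to 3 rises and 3 falls per list among called genes with a mean of at least 20 counts and no overlap of genotypes, and the 3 nearest genes of each member (prior count 1). Some genes that the rule names are not reported here. The flanking genes follow an annotation of another build. Alternatives were library totals, DESeq2 1.42.0, no count filter, unlisted counts at 0, leaving out each library, a replicate block and, for the nearest genes, Pearson correlation.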

Additional observations from a re-analysis of the deposited data

How the results depend on the processing

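Each fit was repeated with 9 alternatives. The log2 changes of all 5 calmodulin genes kept their sign in each of these. With library totals, Calml3 stood at 1.09, Calm2 at −0.86 and Calm3 at −0.30, shifts beyond their spread between replicates. When 1 library was left out, Calm4 ran from 2.55 to 2.86, Calm5 from 2.39 to 2.79, Calml3 from 1.16 to 1.36, Calm2 from −0.80 to −0.56 and Calm3 from −0.20 to −0.05. DESeq2 called 1483 genes higher and 1173 lower, in place of 2173 and 2084. In the lists, library totals gave 5 falls for calcineurin and NFAT, 11 falls for other calmodulin-binding proteins, and 1 rise and 9 falls for calcium genes, while DESeq2 gave 1, 4 and 4 falls and 0 rises for calcium genes, where 3 rose at an unadjusted p of 0.05. Leaving out 1 library, falls ran from 5 to 8 for kinases, 1 to 3 for calcineurin and NFAT and 3 to 6 for calcium genes, and rises from 0 to 1 for calcineurin and NFAT, 1 to 2 for calcium genes and 2 to 5 for EF-hand relatives. The fits without 1 library leave 1 sample in a genotype, which is assumed to vary like the other genotype; the cause of lost calls was not tested.

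The replicate numbers are shared by the genotypes. Across genes, the differences between replicates 1 and 2 of KO and of WT were not correlated (−0.00348 over 10873 genes). With 2 libraries per genotype, this cannot show whether same-numbered libraries were handled together. A fit with the replicate block called 2216 genes higher and 2130 lower, and gave Calm4 2.70 and Calm2 −0.68. The SE of Calm4 was 0.13 with the block and 0.17 without, and that of Calm2 0.12 in both fits.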
